A study of Homo sapiens with 4 samples.

Results

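The genes described here had a signal at or over a set floor on the control array (0 h). Their signal stood higher on all 3 arrays of RCM-1 cells treated with methylthioacetic acid (MTA). A probe set was taken if it was no control, had 1 gene symbol, had a signal of 50 or more at 0 h and had a log2 ratio to 0 h of 0.8 or more (1.74-fold) at each of 6, 12 and 18 h, after each array had been divided by its median. Symbols starting with MT1, MT2, KIF or CENP were left out. The rule took 70 probe sets for 67 genes, out of 16147 probe sets of 9581 genes that could have met it and 54675 probe sets in all. That is 0.434% of the 16147, while 724 (4.48%) had a ratio of −0.8 or less at all 3 times. The genes were thus chosen by the 0 h signal and the ratios at 6, 12 and 18 h, so these values are given as descriptions and carry no test.

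RCM-1 is an established human colorectal cancer cell line, labelled as well-differentiated and from the rectum, and MTA is a small sulphur-containing acid, used at 1 mM. A single array was hybridised for each of 0, 6, 12 and 18 h of MTA, all from the same line grown in the same serum-containing medium. After 6, 12 or 18 h the medium was exchanged for vehicle medium (0.1% acetonitrile) and culture went on up to 24 h from the first application, so exposure and time since removal are tied together in opposite order and cannot be told apart. The 0 h array is the control of every ratio, but the sources do not say plainly whether its cells were kept for the full time too.

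Dome formation, the change that MTA induces in this line, is a differentiation of the cell sheet in which fluid is moved beneath it. Sestrins and Rag GTPases are known for their place upstream of mTORC1, the kinase complex that couples growth to amino acid supply, and FOXO factors are known to drive sestrin and BCL6 transcription when growth factor signalling is low.

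The deposited values are MAS5 signals, linear intensities with 1 value per probe set and array. The array medians were 16.7, 20.8, 16.6 and 16.4 at 0, 6, 12 and 18 h, so dividing by them lowered the 6 h ratios by 0.32 and moved the 12 and 18 h ratios by under 0.03 on the log2 scale. After this division the median ratios over the 16147 probe sets were −0.25, −0.33 and −0.51 at 6, 12 and 18 h. All 13 epithelial markers (EPCAM, CDH1, keratins, villin and others) had a signal of 50 or more on every array, whereas summed signals ran from 237 to 317 for 15 stromal markers and from 46.5 to 84.3 for 7 endothelial markers. Of 13 immune markers 1 or 2 reached 50 on an array, and lysozyme made up most of their sum. The stromal sum was 317 at 18 h against 237 at 0 h, and FN1 was the only stromal marker at or over 50 at 12 and 18 h, while vimentin lay between 6.62 and 31.1. Their part in the results was not tested. The 3′ to 5′ signal ratio of GAPDH, a measure of RNA integrity, lay between 1.44 and 1.64.

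With 1 array per time no test was possible, and the precision of each value is limited by that number. The only error measure in the data is the disagreement between 2 probe sets of the same gene. Over 4142 genes outside the set with 2 bright probe sets, the difference of their log2 ratios had SDs of 0.363, 0.374 and 0.445 at 6, 12 and 18 h. For the 857 pairs with both 0 h signals under 200, the range in which most of the set lies, it was 0.477, 0.486 and 0.579 at these times. This spread covers probe design and hybridisation, not the variation between cultures.

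The promoters shown were picked because they belong to the 4 highest-ranking genes with a single start in the RefSeq promoter table: NEURL1B (chr5:172641013-172641312, plus strand), TUBA1A (chr12:49189031-49189330, minus strand), SESN3 (chr11:95232426-95232725, minus strand) and CYP4F2 (chr19:15898025-15898324, minus strand). Each runs 5′ to 3′ over 250 bases before and 50 bases after the start in RefSeq, GRCh38.p14. Capitals mark any of the 8 motifs searched on both strands.
NEURL1B: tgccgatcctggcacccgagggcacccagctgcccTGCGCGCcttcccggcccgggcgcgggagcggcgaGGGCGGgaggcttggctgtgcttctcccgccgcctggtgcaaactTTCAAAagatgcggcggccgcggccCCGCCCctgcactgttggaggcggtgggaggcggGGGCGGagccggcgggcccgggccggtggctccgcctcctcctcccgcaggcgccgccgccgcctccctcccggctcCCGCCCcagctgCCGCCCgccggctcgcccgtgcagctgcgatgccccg
TUBA1A: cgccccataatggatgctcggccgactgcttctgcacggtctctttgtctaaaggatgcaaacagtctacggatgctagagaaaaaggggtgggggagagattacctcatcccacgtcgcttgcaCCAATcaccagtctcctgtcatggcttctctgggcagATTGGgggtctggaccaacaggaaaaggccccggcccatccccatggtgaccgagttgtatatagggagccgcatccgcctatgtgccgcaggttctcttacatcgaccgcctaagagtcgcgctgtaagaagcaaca
SESN3: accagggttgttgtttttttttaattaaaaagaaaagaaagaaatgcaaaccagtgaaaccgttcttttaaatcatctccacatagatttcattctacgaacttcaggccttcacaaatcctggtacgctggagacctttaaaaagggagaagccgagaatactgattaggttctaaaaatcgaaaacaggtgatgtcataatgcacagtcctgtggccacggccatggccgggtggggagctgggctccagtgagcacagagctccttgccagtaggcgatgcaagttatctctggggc
CYP4F2: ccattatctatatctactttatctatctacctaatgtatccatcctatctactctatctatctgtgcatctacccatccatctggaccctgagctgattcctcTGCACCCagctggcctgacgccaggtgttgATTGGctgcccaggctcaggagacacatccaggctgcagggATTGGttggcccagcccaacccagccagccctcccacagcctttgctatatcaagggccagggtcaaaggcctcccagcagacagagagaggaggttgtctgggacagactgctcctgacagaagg

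The NEURL1B window was 79.3% G or C and held GGGCGG, the core of the GC box, 5 times. TUBA1A and CYP4F2 each held CCAAT 2 times, and SESN3 held none of the motifs. Over all windows, 47 of the 67 genes had an entry, with 74 windows between them. TGAGTCA, the AP-1 site, was in 9.46% of these windows (7 windows, of BCL6, DLGAP1-AS6, ENO2 and SNX10), beside 3.56% of 11604 windows of all genes with a 0 h signal of 50 or more and 4.95% of all 35116 windows. TATAAA was in 13.5% beside 5.77% and 11.5%, and GGGCGG in 51.4% beside 67.5% and 45.0%. CACGTG, the E-box read by MYC and MITF family factors, was in 5.41% beside 9.96% and 7.26%. For CCAAT the shares were 29.7%, 35.1% and 34.6%, and for TTTGAA 12.2%, 10.4% and 15.2%. TGCGCNC and TGCACNC are both forms of the core of the metal response element. Their shares were 31.1%, 29.2% and 20.0% for the former and 10.8%, 11.5% and 12.1% for the latter. The windows of 1 gene overlap, so these shares are a description.

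Most of the genes had modest signals on the 0 h array. The 0 h signals ran from 50.7 to 739 with a median of 83.0, and 42 of the 70 (60%) were under 100, beside 21.9% of the 16147. Only 11 (15.7%) were at 200 or more, beside 56.3%. The 0 h signal is also the divisor of every ratio in the rule, so low 0 h readings favour selection. The rule thus partly fixes these contrasts. On the MTA arrays the median signals of the 70 were 258, 242 and 208 at 6, 12 and 18 h.

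**Figure D1:**
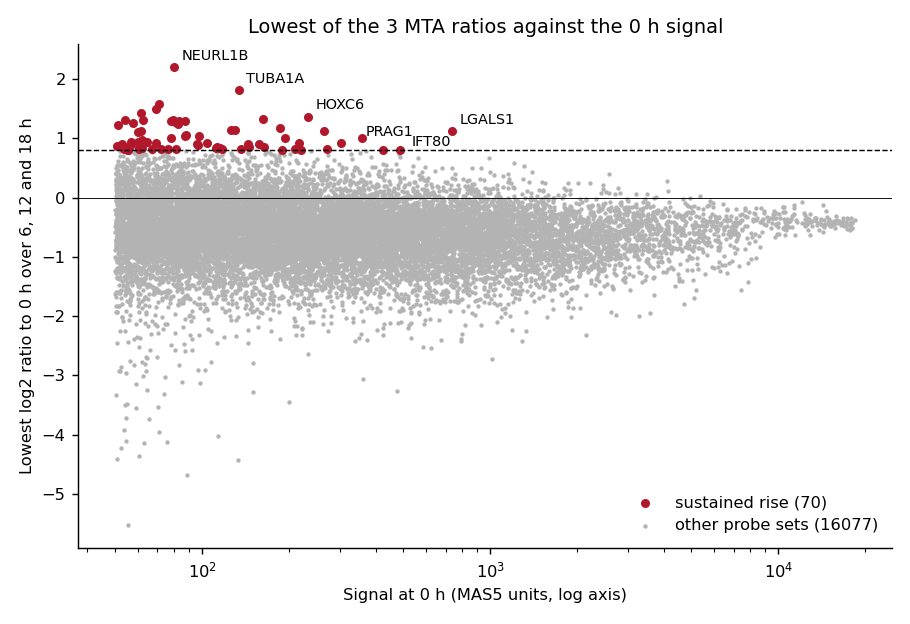
Signal at 0 h (MAS5 units, log axis) against the lowest of the log2 ratios at 6, 12 and 18 h, for the 70 probe sets taken by the rule (red) and the 16077 others with a 0 h signal of 50 or more (grey); the dashed line is the threshold of 0.8. Most red points lie at 0 h signals under 100, and NEURL1B stands highest with a lowest ratio of 2.21.

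Median ratios of the 70 were 1.05 at 6 h, 1.25 at 12 h and 1.23 at 18 h, and the highest were 2.21, 2.87 and 2.71, all of NEURL1B. The lowest of a probe set's 3 ratios was 1 or more for 30, 1.5 or more for 3 and under 0.9 for 28. Just inside the threshold stood GOLGA8N (0.81), PRAG1 (0.81) and SYTL2 (0.80), and just outside it MAN1A1, PGAP1 and PTP4A3, with 0.796, 0.795 and 0.795. At the signal floor, EP300-AS1, IGFBP1 and SLFN5 had 50.7, 51.3 and 52.6 at 0 h and were taken, whereas NES, SLC27A1 and F8, with 48.1, 48.7 and 48.7, met the ratio condition and were not.

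**Figure D2:**
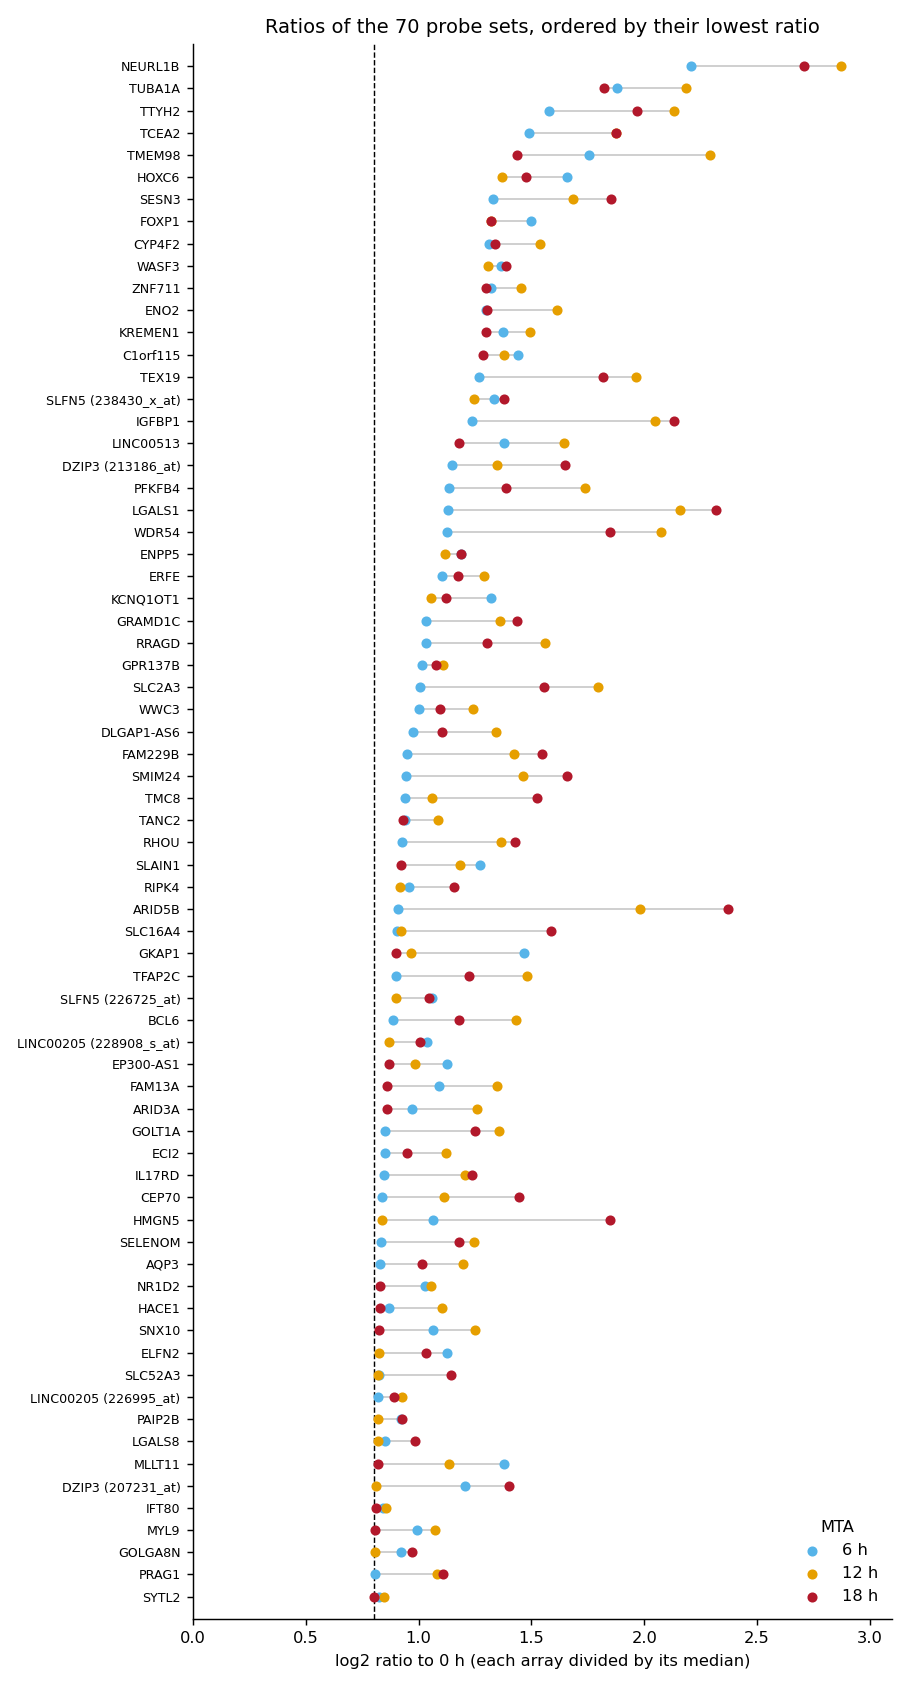
Log2 ratio to 0 h at 6 h (blue), 12 h (orange) and 18 h (red) of MTA for each of the 70 probe sets, ordered from the top by the lowest of the 3, with a grey bar over their range and the threshold of 0.8 dashed. The ratio was highest at 12 h for 35, at 18 h for 23 and at 6 h for 12.

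Among the regulators of signalling, NEURL1B, a Neuralized ubiquitin ligase that promotes endocytosis of Notch ligands, had signals of 80.1, 461, 582 and 513 at 0, 6, 12 and 18 h. It was the highest of the 70 at every time, with ratios of 2.21, 2.87 and 2.71 and a 6.53-fold difference at 18 h. KREMEN1, a Dickkopf co-receptor that restrains Wnt signalling, had 83.3, 268, 233 and 201 at 0, 6, 12 and 18 h. IL17RD, a feedback inhibitor of FGF and ERK signalling, had 115.5, 259, 264 and 267. The ratios of KREMEN1 and IL17RD at 18 h were 1.30 and 1.24. The other KREMEN1 probe sets were dim (2.76 to 16.7 at 0 h) and had 3.99, 1.75, −2.54 and −1.81 at 18 h. RIPK4, a kinase of epidermal differentiation, PRAG1, a pseudokinase, and WWC3, a Hippo pathway scaffold, had ratios of 1.16, 1.11 and 1.09 at 18 h. The other RIPK4 probe set was dim (23.7 at 0 h) and had −1.32, −1.63 and −2.59 at 6, 12 and 18 h. PRAG1 was among the brighter members at 426 on the 0 h array. Of the 8 bright genes of the fixed Notch list, NEURL1B alone was at 0.8 or more at 18 h, 1 (NOTCH1, −0.95) was at −0.8 or less, and the other 6 lay between −0.66 and 0.24. The median of the list was −0.43, beside −0.50 over all genes, of which 28% were at −0.8 or less.

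Of the 10 genes for transcription and chromatin, TCEA2, which encodes a TFIIS elongation factor, had 69.4 at 0 h and then 243, 253 and 249.6, near one another as deposited, while its ratios after division by the median were 1.49, 1.87 and 1.87. HOXC6, a homeobox factor of the HOXC cluster, had 233 at 0 h and 916, 598 and 637 under MTA. Its highest signal was thus that of the shortest exposure. ARID5B, a DNA-binding cofactor of histone demethylation, had its highest signal with the longest exposure. The signals were 158, 369, 619 and 801 at 0, 6, 12 and 18 h, and its ratio at 18 h was 2.37 after 0.91 at 6 h, the widest gain within the set. BCL6, a transcriptional repressor best known from germinal centre B cells, had 97.0, 224, 260.1 and 216. TFAP2C, the AP-2γ factor, had ratios of 0.90, 1.48 and 1.22, and both it and BCL6 were highest at 12 h. FOXP1 (forkhead), ZNF711 (zinc finger) and ARID3A (ARID family) had 1.32, 1.30 and 0.86 at 18 h. HMGN5, a nucleosome-binding protein, had 55.5, 144, 98.3 and 196, with the 12 h array low between its neighbours, a swing of 1.01 on the log2 scale from 12 to 18 h. NR1D2, the REV-ERBβ repressor of the circadian clock, had 118, 299, 243 and 205.

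Nutrient sensing and metabolism gave 9 genes, and for all 9 the ratio at 18 h was above that at 6 h, beside 22.9% of the 16147 probe sets. With the deposited scaling this held for 2 of the 9, SESN3 and IGFBP1. The contrast with the 22.9% is partly fixed by the rule, since members had to reach 0.8 at 18 h. SESN3, a sestrin that restrains mTORC1, had 163 at 0 h and 511, 520.1 and 579 under MTA, with the highest value at 18 h. RRAGD, a Rag GTPase that carries amino acid signals to mTORC1 on the lysosome, had 87.2, 222, 256 and 211. GPR137B, a lysosomal membrane protein linked to the same pathway, had 194, 489, 416 and 402. The sestrin and Rag relatives had lower ratios and did not meet the rule. At 6, 12 and 18 h SESN1 was at 0.49, 0.58 and 0.16 and SESN2 at 0.38, 0.46 and 0.42. Both stood above the medians of all bright probe sets at these times, −0.25, −0.33 and −0.51. At 18 h RRAGA was at −0.55, RRAGB at −1.36, and the RRAGC probe sets at −0.06 and 0.17. IGFBP1, a secreted binder of insulin-like growth factors, had 51.3, 150.2, 210.3 and 220.0, and thus a 0 h signal next to the floor. IGFBP6 was at −0.06 and IGFBP2 at −0.76 at 18 h.

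For sugar use, PFKFB4, an enzyme that sets the level of an activator of glycolysis, had 126, 346, 418 and 324. ENO2, the enolase best known from neurons, had 87.2, 267, 265 and 211. SLC2A3, the GLUT3 glucose transporter, had 359, 899, 1239 and 1034, with ratios of 1.01, 1.80 and 1.55. The more widely used relatives were below 0 at 18 h, where the median of all bright probe sets was −0.51: the ENO1 probe sets were at −0.45 to −0.67 at 18 h, PFKFB3 at −0.10, PFKFB2 at −0.11 and SLC2A1, the GLUT1 transporter, at −0.95 and −1.08. PFKFB2 was at 0.38 at 6 h and PFKFB3 at 0.10 at 12 h. Each difference between paralogues here is between separate probe sets, so only the ratios are compared, not the levels. CYP4F2, a fatty acid and vitamin K hydroxylase, had 54.0, 167, 155 and 134. Its 0 h signal lay near the floor, and its probe set has the suffix for probes similar to other sequences. The CYP4F3 probe set was at −0.21 at 18 h. ECI2, an isomerase of fatty acid oxidation, and ERFE, a hormone that lowers hepcidin, had 0.95 and 1.17 at 18 h.

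The fixed lists of related genes held few members beyond these. Of 21 bright genes on the list of growth arrest and FOXO targets, 4 (19.0%) were at 0.8 or more at 18 h. The share over all 9581 genes by their brightest probe set was 2.06%. Of the 4, SESN3 and BCL6 are members, which the rule itself put at 0.8 or more, so the 2 shares are no test of the list. The others were CCNG2 (1.19) and HBP1 (1.04), which missed the rule with 0.69 each at 6 h. Another 2 of the list were at −0.8 or less, beside 28% of all genes, and its median was 0.16, beside −0.50 over all genes. In the hypoxia list 3 of 12 were at 0.8 or more at 18 h, the member PFKFB4, ANKRD37 (0.98) and NDRG1 (0.89). Another 2, SLC2A1 and ADM, were at −0.8 or less, beside the same 28%. RRAGD was the only one of 18 in the lysosome and autophagy list, and AQP3 the only one of 11 in the ion and water transport list, whose median was −0.71. NR1D2 was the only member among 4 bright clock genes. The other 21 lists, among them p53 targets, enterocyte and brush border genes, junctions and mitosis, held no member.

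**Figure D3:**
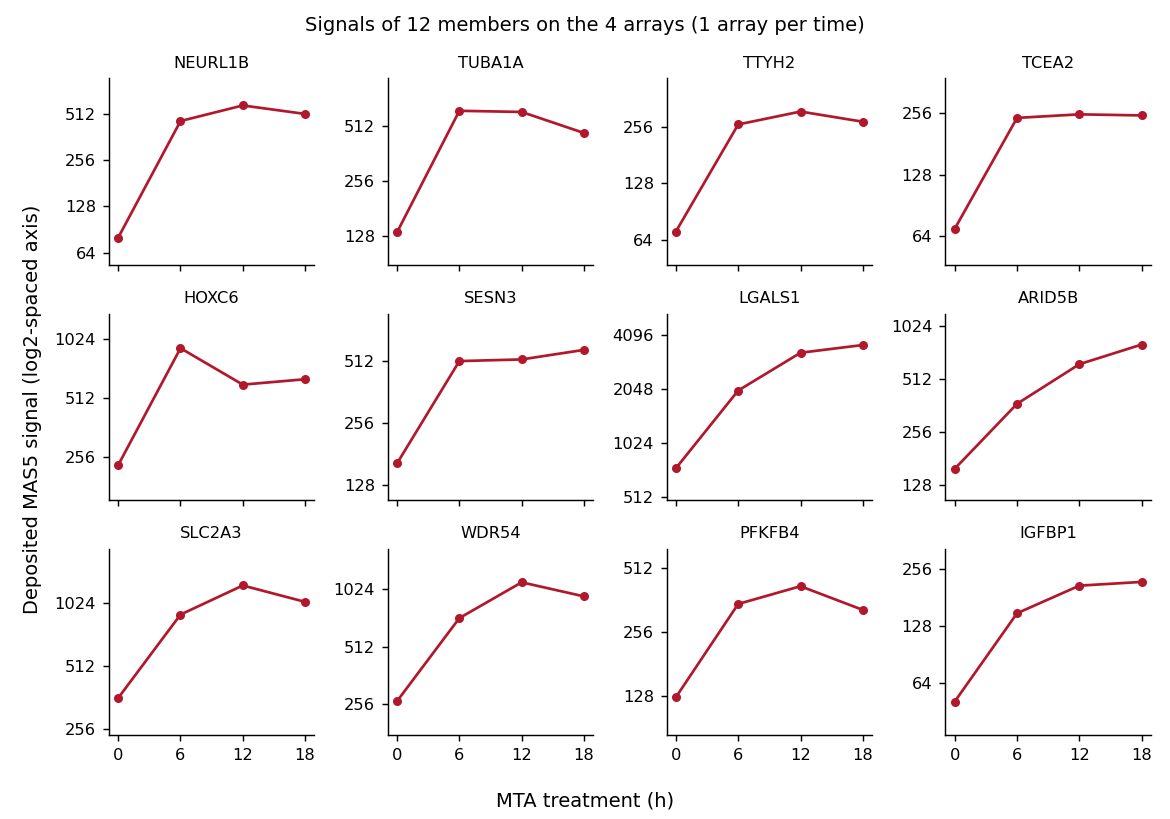
Deposited signals (log2-spaced axes, each panel with its own range) of 12 named genes at 0, 6, 12 and 18 h of MTA, 1 array per time. Times are lengths of exposure, and culture went on up to 24 h. NEURL1B, TUBA1A, TTYH2, TCEA2, HOXC6 and SESN3 had most of their difference with the 6 h exposure, and LGALS1, ARID5B and IGFBP1 were highest at 18 h.

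All 6 genes for transporters and channels had a higher ratio at 18 h than at 6 h, beside the same 22.9%. With the deposited scaling 4 of them did, without AQP3 and SLC52A3. Here too the rule partly fixes the contrast with the 22.9%. TTYH2, of the tweety family of membrane proteins, had 71.0 at 0 h and 263, 309 and 272 under MTA. AQP3, the basolateral water and glycerol channel of epithelia, had 271, 600.2, 617 and 538, with ratios of 0.83, 1.20 and 1.02. Its other probe sets, dim with 7.84 and 28.7 at 0 h, had 1.93 and −0.70 at 18 h. SLC16A4, of the monocarboxylate transporter family, had 144, 336, 271 and 424. TTYH2 and AQP3 were highest at 12 h, SLC16A4 at 18 h. AQP11, the other bright aquaporin, had 0.58, 0.95 and 0.79 at the 3 times and did not meet the rule. TMC8, of the transmembrane channel-like family, and SLC52A3, a riboflavin transporter, had 1.52 and 1.14 at 18 h.

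Of the 7 genes for the cytoskeleton, cilium and centrosome, TUBA1A had signals of 135, 616, 607 and 467 at 0, 6, 12 and 18 h. It encodes an α-tubulin that is most abundant in neurons, and of its ratios of 1.88, 2.19 and 1.82 the lowest was second only to that of NEURL1B. No probe set of TUBA1B, TUBA1C or TUBA4A was above 0.02 at any time. At 18 h they ran from −0.11 to −0.94, where the median of all bright probe sets was −0.51. The TUBA1A probe set has the suffix for probes shared between transcripts, so part of its signal could come from related tubulins. RHOU had 303, 715, 773 and 797, and WASF3, an activator of actin branching, 79.2, 254, 194 and 203. The 3 WASF2 probe sets were below 0 at 18 h, down to −0.37, but above the median of −0.51. SLAIN1, a microtubule plus-end protein, was highest at 6 h (1.27) and at 0.92 at 18 h. CEP70, a centrosome protein, IFT80, a carrier of the cilium, and MYL9, a myosin light chain of smooth muscle, had 1.44, 0.81 and 0.81 at 18 h.

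LGALS1, which encodes galectin-1, was the brightest of the set at 0 h and had 739, 2012, 3273 and 3616 at 0, 6, 12 and 18 h, a 4.99-fold difference at 18 h. Each array stood above that of the next shorter exposure. The abundant epithelial galectins LGALS3 and LGALS4 were at −0.54 and −0.37 at 18 h, near the median of all bright probe sets, −0.51. LGALS8 was taken through a probe set with 76.3, 171, 134 and 148, but its bright probe sets spread wider at 6 h than those of any other member gene. Its 5 other bright probe sets had ratios of 0.13 to 1.09 at 18 h and −0.41 to 0.44 at 6 h.

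The remaining groups were smaller. DZIP3, an RNA-binding ubiquitin ligase, was taken by 2 probe sets, with ratios at 18 h of 1.65 and 1.40, and HACE1, a ligase that targets RAC1, had 0.83. For membrane traffic and lipid transfer, GRAMD1C, a sterol transfer protein, had 1.44 at 18 h, GOLT1A of the Golgi 1.25, SNX10, an endosomal sorting nexin, 0.83 and SYTL2, a RAB27 effector, 0.80. The 5 long noncoding RNAs were LINC00513 (1.18), KCNQ1OT1 (1.12), DLGAP1-AS6 (1.10), LINC00205 (1.00 and 0.89 for 2 probe sets) and EP300-AS1 (0.87). The antisense names mark transcripts opposite another gene, and KCNQ1OT1 is the imprinted antisense RNA of KCNQ1. These 5 made up 7.46% of the genes, beside 3.42% of genes other than protein-coding ones among 9575 bright genes.

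Other members had varied or uncertain roles. WDR54, a WD repeat protein, had 266, 722, 1111 and 938, with ratios of 1.13, 2.07 and 1.85. TMEM98, a membrane protein linked to myelin gene regulation, had 61.2, 257, 297 and 163, and its 18 h array lay 0.85 below the 12 h one on the log2 scale, the widest such drop. TEX19, a germ cell gene, had 57.6, 173, 223 and 199.5. SMIM24 and FAM229B had 1.66 and 1.55 at 18 h, and SLFN5, a Schlafen family gene, was taken by 2 probe sets with 1.38 and 1.05. C1orf115, ENPP5, SELENOM, ELFN2, GOLGA8N, TANC2, PAIP2B, GKAP1, FAM13A and MLLT11 completed the set, with ratios at 18 h between 0.82 (MLLT11) and 1.29 (C1orf115). GOLGA8N belongs to a family of near-identical copies and was read by probes that also match other sequences. GOLGA8A was at −0.28 at 18 h, where the median of all bright probe sets was −0.51.

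**Figure D4:**
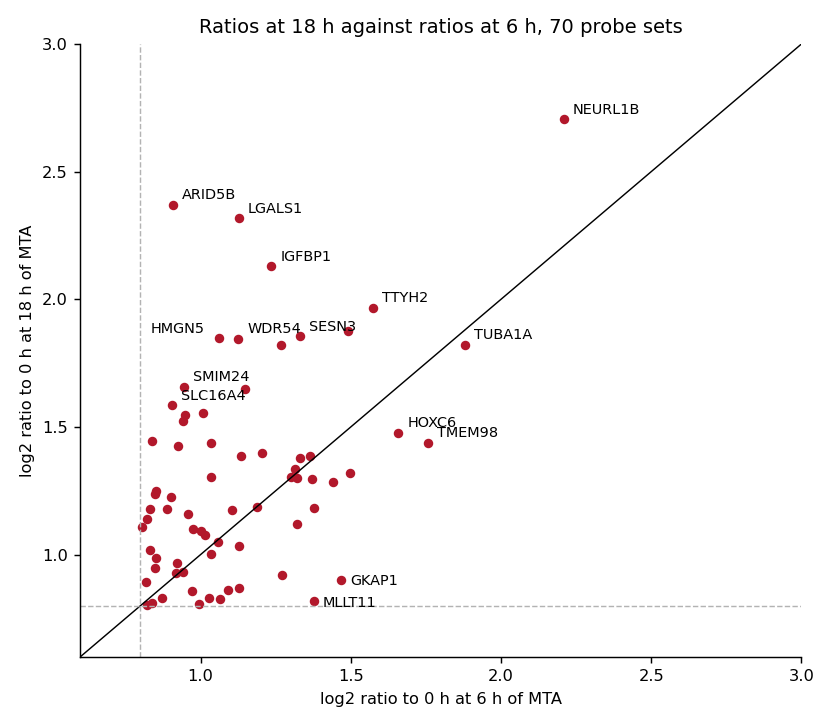
Log2 ratio to 0 h at 6 h against that at 18 h for the 70 probe sets, with the line of equal ratios and dashed lines at the threshold of 0.8. ARID5B, LGALS1 and IGFBP1 lie farthest above the line, and GKAP1 and MLLT11 farthest below it.

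The set did not vary with the length of exposure in 1 way, and time since removal varied along with it. The ratio at 18 h was above that at 6 h for 44 of the 70, beside 22.9% of the 16147. Members had to reach 0.8 at 18 h and the 16147 did not, so the rule partly fixes this contrast. Differences ran from −0.57 (GKAP1) to 1.46 (ARID5B), with a median of 0.08. In 15 the ratio at 18 h was larger by 0.5 or more, led by ARID5B, LGALS1 (1.19), IGFBP1 (0.89), HMGN5 (0.79) and WDR54 (0.72). In 2, GKAP1 and MLLT11, it was smaller by as much. This order depends on the scaling of the 6 h array. With the deposited scaling, 22 of the 70 had the higher ratio at 18 h and 41 had their highest ratio at 6 h, in place of 44 and 12. The counts of differences of 0.5 or more were then 3 higher at 18 h and 13 lower, in place of 15 and 2. ARID5B, LGALS1 and IGFBP1 were higher at 18 h than at 6 h by both scalings.

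Whether a second reading of the same gene gave the same picture could be asked for 39 of the 67 genes, since 28 have no further probe set with 1 symbol. There were 88 such probe sets, from the same 4 RNA samples, and none with a 0 h signal of 50 or more can meet the full rule, because it would then be a member. Of the 20 bright ones, of 12 genes, 16 were above 0 at 6 h, 18 at 12 h and all 20 at 18 h, beside 24%, 22.5% and 16.2% of the other bright probe sets. Their median ratios were 0.59, 0.64 and 0.58 at the 3 times, below those of the member probe sets, and 4, 7 and 6 of the 20 were at 0.8 or more, beside 0.746%, 1.59% and 1.3% of the others. At 18 h 18 of the 20 lay below the member probe set of their gene, although 15 were brighter at 0 h.

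Among the bright other readings, those of SLC2A3 were highest at 18 h. Its 2 other probe sets had 287, 558, 723 and 670.4 in 1 case and 995, 1979, 2755 and 2493 in the other at 0, 6, 12 and 18 h. The ratio at 18 h was 1.55 for the member, whose probes partly match other sequences, against 1.25 and 1.35 for these 2. Part of all 3 readings could come from SLC2A14, a near-identical gene. WWC3 had 1.09 by the member and 1.13 by its other probe set at 18 h, and CEP70 had 1.44 against 0.98 and 0.99. FOXP1 was less even, with 1.32 by the member against 0.37 and 0.67, and so were NR1D2 (0.83 against 0.38) and ARID3A (0.86 against 0.11). For 10 of the 12 genes all bright readings were above 0 at every time, the exceptions being LGALS8 and CEP70. Of 68 dim probe sets of 34 member genes, 48 were above 0 at 6 h, 48 at 12 h and 52 at 18 h, beside 49.5%, 51.1% and 51.6% of 24800 dim probe sets. In percent these were 70.6, 70.6 and 76.5, with ratios at 12 h from −3.89 to 4.43.

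**Figure D5:**
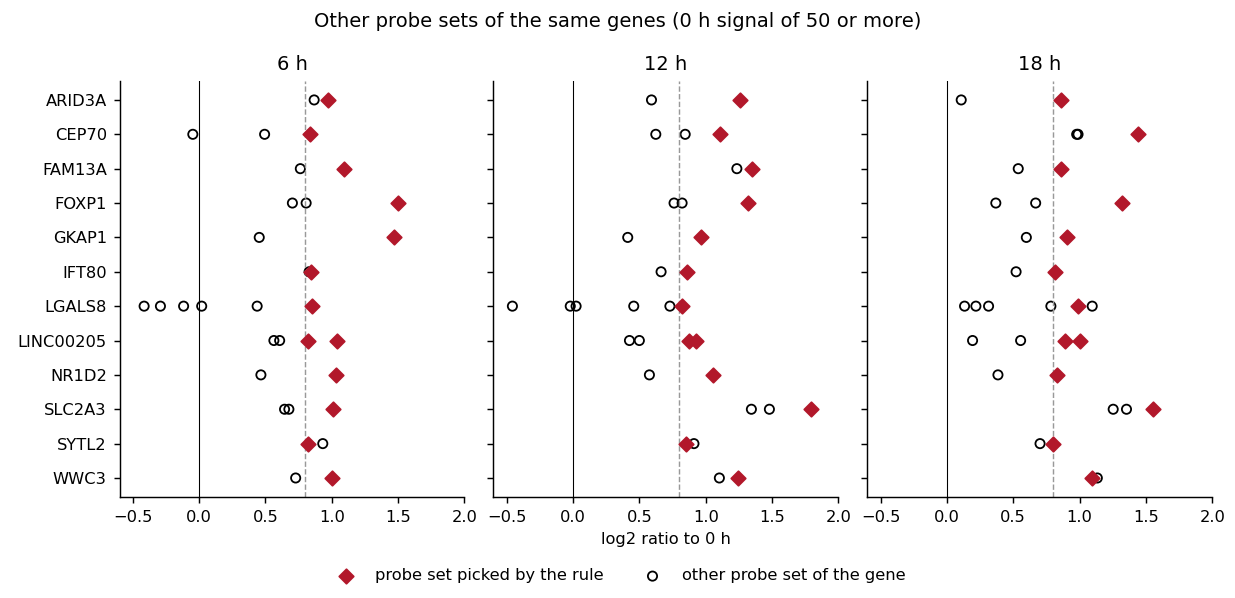
Log2 ratio to 0 h at 6, 12 and 18 h of MTA (panels) for the 12 genes with a further probe set at a 0 h signal of 50 or more: red diamonds are the probe sets taken by the rule and open circles the other ones. All open circles are above 0 at 18 h and most lie left of the diamond of their gene, with LGALS8 spread widest at 6 h.

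Probe designs and chromosomes were mixed within the set. Of the 70 probe sets, 46 were of the standard design, 17 (24.3%) shared probes between transcripts and 5 (7.14%) had probes similar to other sequences, beside 34.3% and 8.76% of the 16147. The genes lay on 21 chromosomes, with 9 of 67 on chromosome 3 (13.4%, beside 5.97% of bright genes). Chromosome 3 held the most and is named for that reason, so its share is no test. Chromosome 1 held 7, with no share over bright genes counted beside it. The number in the set depended on scaling: 58 of the 70, for 56 genes, were also taken under each of 5 other scalings. The 12 that were not comprised IFT80, MYL9, SNX10, SYTL2, MLLT11 and GOLGA8N, which missed the rule with the deposited scaling, and HMGN5, ELFN2, LGALS8, PAIP2B, SLC52A3 and 1 of the 2 DZIP3 probe sets, which missed it after scaling to the poly-A controls, as GOLGA8N did too.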

How the data were processed

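Total RNA of RCM-1 cells was hybridised to Affymetrix U133 Plus 2.0 arrays, 1 for each duration of MTA. The values deposited are linear signal intensities computed by MAS5 in Affymetrix Expression Console. The program's version and scaling target were not given in the sources used here. Each array was divided by its median over all probe sets, and log2 ratios to 0 h were taken without a pseudocount. The floor of 50 applied to the deposited 0 h signal. Signals are quoted as deposited.

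Probe sets were named through GEO's platform annotation, and 99.9% of those with 1 symbol matched a RefSeq gene of GRCh38.p14. Promoters came from RefSeq, several windows for some genes, and motif shares are per window. Overlaps among the motifs were not removed.

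The members, the 27 gene lists and the alternatives were chosen with earlier results of these data known. Lists use the brightest probe set of a gene. Genes named were the 12 with the highest lowest ratio, the 10 brightest at 0 h, members on a list, the 3 on each side of the threshold and genes with 2 member probe sets. The other members were grouped by known role after their names had been seen, and paralogues and other singled-out genes were named after their values had been seen.

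Alternatives were other scalings (deposited, trimmed mean, quantile, bright probe sets, poly-A controls), floors, thresholds and a pseudocount. The calculation was tested on simulated data. Calculations used pandas 2.3.3, NumPy 2.4.6 and SciPy 1.17.1 under Python 3.11.15, and plots matplotlib 3.10.9.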

Additional observations from a re-analysis of the deposited data

How the results depend on the processing

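The size of the set depended on scaling, floor and threshold. In place of 70 probe sets, 67 genes and 44 probe sets higher at 18 h than at 6 h, the numbers were 131, 117 and 68 with the deposited scaling, 274, 243 and 208 after division by the trimmed mean, 190, 168 and 148 after quantile normalization, 288, 254 and 216 after centring on bright probe sets and 120, 112 and 88 with poly-A scaling. They were 163, 156 and 109 with a floor of 25, 28, 28 and 18 with a floor of 100, 178, 161 and 109 with a threshold of 0.6, 30, 30 and 20 with a threshold of 1, and 40, 40 and 28 with a pseudocount of 16. With no floor they were 2975, 2667 and 1711, with median ratios of 1.99, 2.18 and 2.15 at 6, 12 and 18 h. A floor on the scaled signal took 73 probe sets. All 70 were kept with the trimmed mean, quantile normalization and centring on bright probe sets, 64 with the deposited scaling and 63 with poly-A scaling. The median 18 h ratio of the other probe sets of these genes, 0.58, was 1.06 with the trimmed mean and 1.07 with centring. The share of those probe sets that met the ratio condition at all 3 times, 0% by construction, was 20% with the deposited scaling, 40% with the trimmed mean and with quantile normalization, 45% with centring, 25% with a threshold of 0.6 and 21.6% with no floor. The median ratio of all bright probe sets was no lower than −0.07 at any time under the trimmed mean, quantile and centred scalings. Among values for single genes and lists, 71 moved by more than the spread between probe sets, 476 did not, and 1 changed sign: the median of the lipid use list at 18 h, −0.06 by the brightest probe sets and 0.042 by the mean over probe sets. No paired analysis was possible because each time has 1 array. For the same reason no array could be left out.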

Other observations

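Leaving out symbols by name removed 10 probe sets of 7 metallothionein genes that met the rest of the rule and no KIF or CENP probe set. MT1HL1 had 145, 1149, 808 and 961 at 0, 6, 12 and 18 h, and its ratios of 2.67, 2.49 and 2.75 stood beside those of NEURL1B. MT2A had 511, 1545, 1502 and 1352 at the same times. These probe sets all carry the suffix for probes similar to other sequences, so the metallothionein copies cannot be told apart by them. A further 8 probe sets with several symbols and 11 with none met the floor and the ratio condition and were not named.

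Genes outside the set could reach the threshold at 12 or 18 h of exposure without reaching it at 6 h. Of 33 bright genes of the mitosis list none was at 0.8 or more at 6 h, 6 were at 12 h and 11 at 18 h. Over all 9581 genes the counts were 124, 230 and 197 at these times, the last being 2.06%. The median of the list at 18 h was 0.51, beside −0.50 over all genes. Below the floor, 2905 of 24800 probe sets met the ratio condition, where ratios rest on dim 0 h readings.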
